A study of Mus musculus with 2 samples.

Results

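The genes Jaml, Bbs9, Pigx, Gemin6, Smg6, Zbtb18, Pdzk1ip1, Epas1 and Gpm6b, were followed in mouse CD8 T cells over families of cells that share a T cell receptor (TCR) beta chain. They are 9 of the 20794 genes of the RNA matrix and were chosen by their measured level, each as a gene that stood high in 1 TCR family of an earlier look at these same cells. The level of a gene in its own family against the other cells is therefore a description and was not tested. The cells, called GD2TIF cells by the submitters, were T cells of a Cas9 transgenic mouse line that had been activated and infected with a retrovirus. That virus targeted the genes Bcor and Zc3h12a and brought in 14g2a, a chimeric antigen receptor against the ganglioside GD2. Each immunocompetent C57BL/6 mouse received 1000000 of these cells, and 2 months later 1000000 CD8+Thy1.1+ GD2TIF cells were sorted from spleen for 1 RNA library and 1 TCR library. All cells were made with the same target genes and receptor, but the edits and the receptor were not read in single cells here. There is no unedited or untreated group, and the labels give neither the ages nor the number of the mice. With 1 library of each kind no value below has a replicate.

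A T cell receptor is made of an alpha chain (TRA) and a beta chain (TRB), each joined from V, J and, for beta, D segments in the thymus with bases added or removed at the joints. The joint lies in the third complementarity determining region (CDR3), so cells with the same TRB CDR3 nucleotides are usually descendants of 1 precursor. A family here is the RNA cells whose barcode has a single productive TRB contig and which share its CDR3 nucleotides, and it is named by its V and J segments. The 9 genes share no pathway. Jaml, Gpm6b and Pdzk1ip1 encode membrane proteins, Pigx a part of the machinery that makes membrane anchors, Gemin6 and Smg6 proteins that handle RNA, Zbtb18 and Epas1 transcription factors, and Bbs9 a protein of the primary cilium.

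The TRB CDR3 sequences below define the 9 families, because every result on the genes turns on which of these receptors a cell carries. They run 5′ to 3′ as read from the deposited contigs. Capitals mark the junction, the bases that lie between a start shared with at least 50% of the other CDR3s of the same V segment and an end shared with at least 50% of those of the same J segment.
TRBV13-3-TRBJ1-1, family of Jaml: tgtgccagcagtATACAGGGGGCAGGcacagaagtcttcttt
TRBV19-TRBJ1-1, family of Bbs9: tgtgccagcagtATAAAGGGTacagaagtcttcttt
TRBV17-TRBJ2-7, family of Pigx: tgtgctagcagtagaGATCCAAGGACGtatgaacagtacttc
TRBV13-3-TRBJ2-1, family of Gemin6: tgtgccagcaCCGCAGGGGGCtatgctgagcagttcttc
TRBV15-TRBJ2-5, family of Smg6: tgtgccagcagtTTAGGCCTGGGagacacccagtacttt
TRBV14-TRBJ1-4, family of Zbtb18: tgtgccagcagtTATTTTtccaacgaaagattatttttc
TRBV12-1-TRBJ2-4, family of Pdzk1ip1: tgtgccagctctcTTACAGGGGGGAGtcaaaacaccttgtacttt
TRBV3-TRBJ2-1, family of Epas1: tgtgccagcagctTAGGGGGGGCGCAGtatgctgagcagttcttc
TRBV12-2+TRBV13-2-TRBJ2-3, family of Gpm6b: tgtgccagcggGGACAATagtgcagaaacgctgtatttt

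The junctions are 6 to 14 bases long and differ between all 9 families, including the 2 that share TRBV13-3. The V call of the family of Gpm6b names both TRBV12-2 and TRBV13-2. A pair of further TRBs is shown because many cells carry them together with the TRB of the Gemin6 family and of the Epas1 family.
TRBV12-2+TRBV13-2-TRBJ2-7, found with the TRB of Gemin6: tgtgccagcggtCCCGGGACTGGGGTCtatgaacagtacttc
TRBV29-TRBJ1-1, found with the TRB of Epas1: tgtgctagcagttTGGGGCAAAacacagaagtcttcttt

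Of 10387 RNA barcodes, 10338 were kept, with a median of 1922 UMIs (unique molecular identifiers, each standing for 1 captured RNA molecule) and a 5th to 95th percentile range of 815 to 4244. The libraries share 4590 of the 5479 TCR barcodes. Of the kept cells, 4586 had a TCR barcode, 5752 (55.6%) had none, and 3879 had exactly 1 TRB. These single-TRB cells formed 430 families, of which 19 held 30 or more cells, from 31 to 882, and together 2865 cells. Doublets were not removed. All 12 CD8 T cell identity genes stood at 208 to 3577 CPM over all cells (CPM, UMIs of a gene per 1000000 UMIs of the group), while the 2 neutrophil genes in the matrix were at 0.045 CPM each and the NK cell list summed to 6.78 CPM. Levels are in CPM, positive cells hold at least 1 UMI, and all intervals are exact, at 95%, and cover counting error only.

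**Figure D1:**
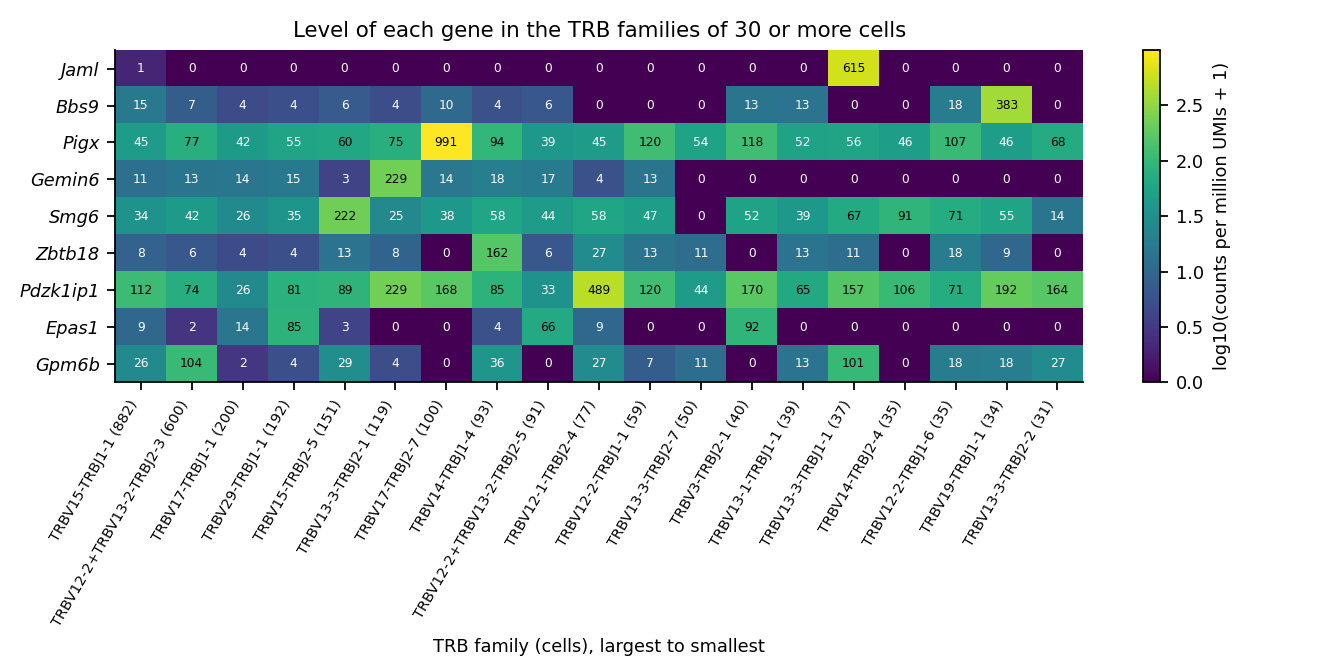
Level of the 9 genes (rows) in the 19 TRB families of 30 or more cells (columns, with the number of cells, largest to smallest). Colour gives log10(CPM + 1) and the printed figure the CPM, so each row should be read along the families. Jaml, Bbs9, Gemin6 and Zbtb18 have 1 bright family each, and Pigx has 1 above a broad row. Smg6 and Pdzk1ip1 have broad rows with a smaller step to the highest family, Epas1 has 3 raised families and Gpm6b 2.

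Jaml encodes a junctional adhesion molecule that binds the coxsackievirus and adenovirus receptor and is known as a costimulatory receptor of epithelial gamma delta T cells. The gene lies on chromosome 9, 45079153 to 45108531 (GRCm38.p6 in RefSeq, as for all positions here). It had 55 UMIs over the 37 cells of TRBV13-3-TRBJ1-1, or 615 CPM (463 to 801), and 4 UMIs over the other 3842 single-TRB cells, or 0.459 CPM (0.125 to 1.18). That is a ratio of 1339 (494 to 5087). Among the other 18 families it was at 0 in 17, and in TRBV15-TRBJ1-1, the largest family, it had 2 UMIs (1.03 CPM). A count of 0 allows up to 1.84 CPM in the largest of those 17 families, and up to 53.5 CPM in the one with fewest UMIs. Positive cells made up 73.0% of the family (27 of 37, 55.9 to 86.2%) and 0.0781% of the other single-TRB cells (3 of 3842). With 59 UMIs over all single-TRB cells Jaml was the 1 member below the minimum of 100 UMIs, and it ranked first by fold among the 9190 genes with at least 50. For scale, 0.103% of the 7777 genes above the minimum were at least 5-fold higher in this family.

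Gpm6b encodes a glycoprotein of the proteolipid protein family, best known from neurons and oligodendrocytes (chromosome X, 166238943 to 166389033). Its highest family was TRBV12-2+TRBV13-2-TRBJ2-3, the second largest, with 169 UMIs over 600 cells, 104 CPM (88.5 to 120). The other single-TRB cells held 124 UMIs, 17.3 CPM (14.4 to 20.6), a ratio of 5.98 (4.72 to 7.60). The small Jaml family stood at the same level, 101 CPM from 9 UMIs, and the ratio of the 2 levels was 1.03 (0.529 to 2.29). The other 17 families lay between 0 and 36.0 CPM, and 4 of them were at 0. Positive cells were 19.7% of the family (118 of 600) and 3.02% of the others (99 of 3279). In this family 0.103% of the 7777 genes were at least 5-fold higher and Gpm6b had rank 7. The first 4 ranks were the haemoglobin genes Hbb-bt, Hba-a2, Hba-a1 and Hbb-bs, and 1 cell held 244 of 245, 779 of 783, 1011 of 1020 and 1104 of 1110 of their UMIs. Cells with the TRB of this family and of TRBV15-TRBJ1-1 together numbered 19. When these 2 families were taken as 1, the ratio of Gpm6b was 4.38 (3.35 to 5.78).

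Pdzk1ip1 encodes a small membrane protein, also called MAP17, that binds the scaffold PDZK1 and is known from kidney and from carcinomas (chromosome 4, 115088708 to 115093894). It was the most broadly found of the 9 over all cells, and like Pigx it had no family at 0. Levels over the other 18 families ran from 26.0 to 229 CPM around a median of 97.6. Its highest family was TRBV12-1-TRBJ2-4, with 109 UMIs over 77 cells, 489 CPM (401 to 589), against 99.1 CPM (92.6 to 106) in the other single-TRB cells. The ratio was 4.93 (4.0 to 6.02), the 1 ratio of the 9 below 5, and it had rank 4 in a family where 0.0386% of genes were at least 5-fold higher. The next family, TRBV13-3-TRBJ2-1, which is the family of Gemin6, stood at 229 CPM, and the highest level was 2.13 times this (1.53 to 3.0). The share of positive cells was 45.5% (35 of 77) against 14.4% (548 of 3802). It was as high in TRBV19-TRBJ1-1, the family of Bbs9, with 15 of 34 cells (44.1%, 27.2 to 62.1%), although the level there was 192 CPM from 21 UMIs. Cells of that family were deeper, with a median of 3178 UMIs.

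The UMIs of Pdzk1ip1 were gathered in part of the family. In 17 of the 77 cells there were 3 or more UMIs, with up to 16 in 1 cell, and 42 cells had none. With the same total spread evenly by each cell's depth, 71.6% of cells would hold a UMI, against the 45.5% seen. The positive cells were deeper, with a median of 3214 UMIs against 2219 in the negative cells of the family. Without the cell with most UMIs the ratio was 4.26. Such a gap was not particular to Pdzk1ip1. An even spread gave 67.6% for Bbs9 against 55.9% seen, 83.4% against 71.0% for Pigx and 31.4% against 25.8% for Zbtb18. The 2 values were 36.0% and 29.4% for Gemin6, 24.1% and 19.7% for Gpm6b and 35.8% and 31.8% for Smg6. For Jaml they were 73.8% and 73.0%, and for Epas1 15.9% and 17.5%.

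Pigx encodes the noncatalytic partner of the enzyme Pigm, which adds the first mannose of glycosylphosphatidylinositol (GPI), the lipid anchor of many surface proteins such as Thy1 (chromosome 16, 32084416 to 32099727). It had 206 UMIs over the 100 cells of TRBV17-TRBJ2-7, 991 CPM (860 to 1136). The other single-TRB cells held 543 UMIs, 63.2 CPM (58.0 to 68.8), so the ratio was 15.7 (13.3 to 18.4). Pigx was found in every family, from 38.5 to 120 CPM around a median of 55.3 in the other 18, so its own family stands 8.27 times (5.10 to 14.2) above the next one, TRBV12-2-TRBJ1-1. Positive cells were 71.0% of the family (71 of 100) and 11.4% of the rest (432 of 3779). In 34 cells of the family there were 3 or more UMIs, with up to 12. It was first by fold, and 0.0643% of genes were at least 5-fold higher there.

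Gemin6 encodes a part of the SMN complex, which loads Sm proteins onto small nuclear RNAs for splicing (chromosome 17, 80207504 to 80228497). Its family was TRBV13-3-TRBJ2-1, with 55 UMIs over 119 cells, 229 CPM (173 to 298), against 10.8 CPM (8.67 to 13.2) in the other single-TRB cells. The ratio was 21.3 (15.0 to 30.1), the highest rank in a family where 0.0514% of genes were at least 5-fold higher. The next family, TRBV14-TRBJ1-4, stood at 17.98 CPM from 4 UMIs, and 8 families were at 0. Positive cells were 29.4% (35 of 119) against 1.86% (70 of 3760).

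This family carries a second TRB in many cells. Besides the 119 single-TRB cells, 74 cells held its TRB together with TRBV12-2+TRBV13-2-TRBJ2-7, and these had 28 UMIs of Gemin6, 163 CPM (109 to 236), with 15 positive cells. A further 27 cells had only the second TRB, with 5 UMIs and 101 CPM (32.8 to 236). Cells of all 3 kinds thus held the transcript above the 10.8 CPM of the other single-TRB cells, and of the 17 Gemin6-positive cells with more than 1 TRB, 15 carried the TRB of the family. The families joined by such cells gave a ratio of 18.7.

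Smg6 encodes the endonuclease of nonsense-mediated decay, which cuts mRNAs that carry early stop codons (chromosome 11, 74925854 to 75164448). It had 70 UMIs over the 151 cells of TRBV15-TRBJ2-5, 222 CPM (173 to 280), and 336 UMIs over the other single-TRB cells, 39.6 CPM (35.5 to 44.1). The ratio of 5.60 (4.26 to 7.26) was the highest of any gene in this family, in which 0.0257% of genes were at least 5-fold higher. The transcript was found in all families but TRBV13-3-TRBJ2-7, with a median of 42.8 CPM over the other 18. The next level, 91.3 CPM in TRBV14-TRBJ2-4, rests on 6 UMIs, and the ratio between the 2 was 2.43 (1.06 to 6.85). Positive cells were 31.8% (48 of 151) against 7.08% (264 of 3728).

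Zbtb18 encodes a zinc finger repressor with a BTB domain, also called RP58, that is known from neuron and muscle development (chromosome 1, 177442351 to 177450764). Its family was TRBV14-TRBJ1-4, with 36 UMIs over 93 cells, 162 CPM (113 to 224). The other single-TRB cells held 75 UMIs, 8.75 CPM (6.88 to 10.97), a ratio of 18.5 (12.1 to 27.9) and the first rank, with 0.0386% of genes at least 5-fold higher. The next family, TRBV12-1-TRBJ2-4, stood at 26.9 CPM from 6 UMIs, and 4 families were at 0. Positive cells were 25.8% (24 of 93) against 1.80% (68 of 3786).

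Epas1 encodes HIF-2α, an oxygen-regulated transcription factor that pairs with Arnt (chromosome 17, 86753864 to 86833410). Its highest level was in TRBV3-TRBJ2-1, 91.5 CPM (36.8 to 189), but this rests on 7 UMIs in 7 of 40 cells. TRBV29-TRBJ1-1 had 39 UMIs over 192 cells, 85.4 CPM (60.7 to 117), and the ratio of these 2 levels was 1.07 (0.405 to 2.42). The third family was TRBV12-2+TRBV13-2-TRBJ2-5, with 12 UMIs and 66.0 CPM. Then came TRBV17-TRBJ1-1 at 14.0 CPM from 7 UMIs, and 10 families were at 0. Epas1 is thus not a gene of 1 family. Against all other single-TRB cells, at 12.0 CPM (9.85 to 14.6), TRBV3-TRBJ2-1 had a ratio of 7.60 (2.98 to 16.2) and the second rank, with 0.154% of genes at least 5-fold higher. In cells thinned to 1000 UMIs the ratio was 4.33. Positive cells were 17.5% (7 of 40) against 1.93% (74 of 3839).

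The first 2 of these families are linked by their receptors, since 53 cells carried both TRBs, and 6 of them were positive for Epas1 (60.2 CPM, 26.0 to 119). Joined with those cells, the 2 families had a ratio of 10.1 to the rest. The 4 families with the most Epas1 were also the 4 with the highest summed level of 14 effector genes, cytotoxicity and chemokine transcripts among them. Those sums were 8165 CPM in TRBV12-2+TRBV13-2-TRBJ2-5, 7783 in TRBV17-TRBJ1-1, 7387 in TRBV3-TRBJ2-1 and 6731 in TRBV29-TRBJ1-1, around a median of 3137 over the 19 families. Their order differed from the order of Epas1. Over the 19 families the gene most like Epas1 by Pearson correlation of log2(CPM + 10) was Ccl5, a chemokine of cytotoxic T cells, at 0.82, followed by Cxcr6, the receptor of Cxcl16, at 0.75. The families share 1 library and differ in depth, so these coefficients are given as a description.

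Bbs9 encodes a scaffold subunit of the BBSome, a coat that carries membrane proteins in and out of the cilium, a structure that lymphocytes lack (chromosome 9, 22475559 to 22888283). It had 42 UMIs over the 34 cells of TRBV19-TRBJ1-1, 383 CPM (276 to 518), against 66 UMIs and 7.60 CPM (5.88 to 9.67) in the other single-TRB cells. The ratio was 50.4 (33.4 to 75.4), and it ranked first where 0.296% of genes were at least 5-fold higher. The next family, TRBV12-2-TRBJ1-6, stood at 17.8 CPM from 1 UMI, and 6 families were at 0. Positive cells were 55.9% (19 of 34) against 1.27% (49 of 3845). The cells of this family were the deepest of the 19, with a median of 3178 UMIs against 2059 in the other single-TRB cells. Thinned to 1000 UMIs per cell, 35.3% of the family were positive against 0.567% of the rest, and the ratio was 85.3.

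In all, 8 of the 9 genes were at least 5-fold higher in their family than in the other single-TRB cells, which restates how they were chosen. The highest family was picked from these same levels, so the bounds against the next family are a description too. Levels stood above the next family for Jaml, Bbs9, Pigx, Gemin6 and Zbtb18, by at least 2.51 times at the lower bound of the interval. For Smg6 the bound was 1.06 and for Pdzk1ip1 1.53. For Epas1 and Gpm6b the next family was not apart. The members just inside and outside a 5-fold ratio were Smg6 at 5.60 and Pdzk1ip1 at 4.93.

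**Figure D2:**
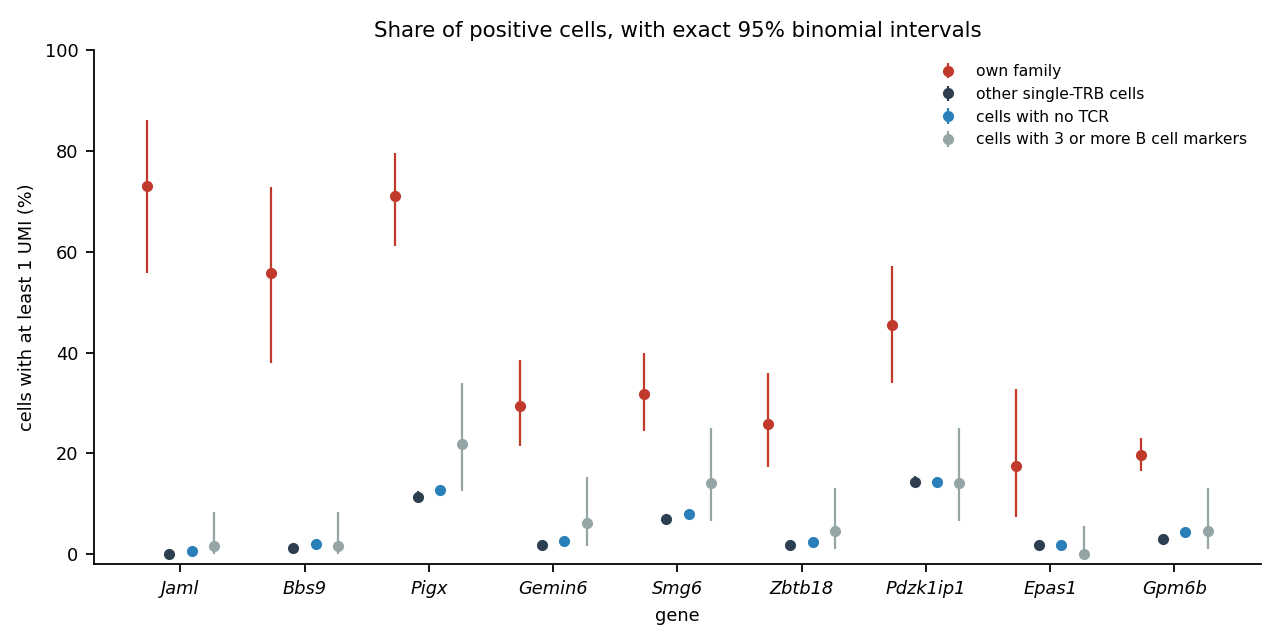
Share of cells with at least 1 UMI of each gene in its own family, in the other single-TRB cells, in cells with no TCR barcode and in cells with 3 or more B cell markers. Points are shares in percent and bars exact 95% binomial intervals. The cells with no TCR barcode lie below the own family for every gene, between 0.591% for Jaml and 14.3% for Pdzk1ip1.

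Sorted CD8 T cells without a TCR barcode held the genes at about the share of the whole library. Of the 5752 such cells, 0.591% were positive for Jaml, 1.96% for Bbs9, 12.7% for Pigx, 2.63% for Gemin6 and 8.01% for Smg6. The shares were 2.42% for Zbtb18, 14.3% for Pdzk1ip1, 1.93% for Epas1 and 4.38% for Gpm6b. These are the values to set beside all cells with a TCR, which were 0.785%, 1.98%, 12.8%, 2.81% and 8.18% in the first 5 genes, and 2.16%, 14.9%, 2.20% and 5.08% in the other 4. The cells without TCR were shallower, with a median of 1827 UMIs against 2033.

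With every cell thinned to 1000 UMIs, and shallower cells left out (690 of those without TCR), the family still held the highest share for each gene. Jaml was then in 44.4% of its family, 0.0270% of the other single-TRB cells and 0.454% of cells without TCR. For Pigx the 3 shares were 56.2%, 5.66% and 7.27%, and for Pdzk1ip1 23.4%, 7.51% and 8.79%. The membrane protein gene Gpm6b stood at 9.85%, 1.33% and 2.43%. Gemin6 was at 22.1%, 1.05% and 1.32%, and Smg6 at 15.9%, 3.31% and 4.05%. Zbtb18 was at 15.2%, 0.823% and 1.52%, and Bbs9 in cells without TCR at 1.01%. Epas1 was down to 2 of 38 family cells (5.26%, 0.644 to 17.7%), against 1.03% and 1.166%, so its interval reached both.

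The 64 cells with 3 or more B cell markers, with a median of 2704 UMIs, were read in the same way. They were taken by these markers alone, so cells with a TCR, family cells and doublets may be among them. They held Jaml in 1 cell (1.56%), Bbs9 in 1 (1.56%), Gemin6 in 4 (6.25%), Zbtb18 in 3 (4.69%), Gpm6b in 3 (4.69%) and Epas1 in none, which allows a share of up to 4.69%. Pigx, Smg6 and Pdzk1ip1 were in 14, 9 and 9 of these cells. For all 9 genes the interval of the family's share lay above the share in these cells, which were deeper than every member family but that of Bbs9 (3178). With 64 cells the intervals are wide, from 0.0396 to 8.401% for Jaml and 6.64 to 25.02% for Pdzk1ip1. For each gene the shares in the other single-TRB cells and in the cells without TCR lay inside or below the interval of the B-marker cells. The B-marker cells thus do not separate these 2 groups. For Jaml the intervals of those other groups did not overlap, at 0.591% (0.410 to 0.825%) without TCR and 0.0781% (0.0161 to 0.228%) in the other single-TRB cells.

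Within a family, the deposited clonotypes split cells by their TRA. In the family of Pigx, 3 clonotypes of 10 or more cells stood at 920, 1170 and 1076 CPM, the first of them without a TRA. The 3 clonotypes of the Smg6 family were at 233, 198 and 233 CPM, and those of the Zbtb18 family at 160, 144 and 207 CPM. Bbs9 was at 277 CPM in 15 cells with 1 TRA and at 543 CPM in 12 cells with 2. Gemin6 was at 282 CPM in 52 cells with 1 TRA and at 854 CPM, from 14 UMIs, in 12 cells with none, and only for Gemin6 did the intervals of 2 clonotypes of a family not overlap (189 to 405 and 467 to 1433 CPM). In the large family of Gpm6b, 8 of 9 clonotypes held it, from 51.6 to 163 CPM, and the other, of 10 cells, was at 0.

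The alpha chain gave a readout that the choice of genes had not used. As planned, a TRA was assigned to a family when at least 80% of its single-TRB cells were in that family, and cells with a TRA and no TRB were then read. This placed 55 of 460 such cells, and no cell fell to 5 of the 9 families, while the main TRA of each family also occurred in cells of other families. Jaml was in 2 of 2 cells assigned to its family and 0 of 53 others, Pigx in 1 of 1 and 5 of 54, Gpm6b in 3 of 24 and 1 of 31, and Gemin6 in 0 of 2 and 0 of 53. The share was thus higher in 3 genes, Jaml, Pigx and Gpm6b, from few cells, and the interval of the ratio for Gpm6b was 0.587 to 248. The share of all genes that are higher in this split was not read, so the count says little about the members.

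A further reading, chosen after these data were seen, took the main TRA of each family, the one whose share of the family most exceeded its share of the other single-TRB cells. The sequences of 2 of them are shown because the cells that carry them outside the family hold the gene. Capitals mark the junction as above.
TRAV15-2-DV6-2-TRAJ23, main TRA of the Bbs9 family: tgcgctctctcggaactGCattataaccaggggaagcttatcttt
TRAV13N-1-TRAJ15, main TRA of the Epas1 family: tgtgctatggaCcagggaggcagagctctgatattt

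The Bbs9 TRA was in 30 of the 34 family cells, in 39 single-TRB cells with 18 other TRBs and in 18 cells with no TRB. Of those 39 cells with another TRB, 13 were positive for Bbs9 (33.3%, 19.1 to 50.2%), against 36 of the 3806 without this TRA (0.946%). Of the 18 cells with no TRB, 9 were positive (50%, 26.0 to 74.0%), against 8 of 442 (1.81%). Cells with the TRA thus make up 13 of the 49 Bbs9-positive single-TRB cells outside the family. The largest part of the 39 cells, 16, had the TRB of the largest family, TRBV15-TRBJ1-1. Doublets and stray contigs were not removed, and their part in this was not tested.

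The Epas1 TRA was the one most widely found, in 36 of 40 cells of TRBV3-TRBJ2-1 and in 464 cells of 19 other TRBs, 175 of them of TRBV29-TRBJ1-1. Epas1 was in 29 of those 464 cells (6.25%, 4.23 to 8.85%) and in 45 of 3375 without it (1.33%). Without TRBV29-TRBJ1-1 the shares were 2.42% (7 of 289) and 1.28% (43 of 3358). In cells with no TRB it was in 5 of 50 with the TRA (10.0%) and 6 of 410 without (1.46%). Of the 192 cells of TRBV29-TRBJ1-1, 175 carried the TRA, so the 2 linked TRBs also share an alpha chain.

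For the other genes the counts were smaller. Jaml was in 4 of 4 TRA-only cells with the main TRA of its family and 1 of 456 without, but in 0 of 18 cells with that TRA and another TRB, which allows up to 16.7%. Pdzk1ip1 was in 6 of 17 TRA-only cells with the TRA (35.3%) against 44 of 443 (9.93%), and in 7 of 34 with another TRB (20.6%) against 541 of 3768 (14.4%). Smg6 was in 7 of 38 cells with another TRB (18.4%) against 257 of 3690 (6.96%), while in TRA-only cells the shares were 8.33% (1 of 12) and 8.26% (37 of 448). Gpm6b was in 3 of 24 TRA-only cells (12.5%) against 8 of 436 (1.83%), and in 8 of 91 with another TRB (8.79%) against 91 of 3188 (2.85%). Of those 91 cells, 44 had the linked TRB, TRBV15-TRBJ1-1. Without that TRB, Gpm6b was in 2 of 47 (4.26%, 0.520 to 14.5%) against 56 of 2350 (2.38%), so the interval reached both shares. The remaining 3 genes had 1 or 2 TRA-only cells each. In cells with another TRB, Gemin6 was in 3 of 17 with the TRA, 11 of those 17 having the linked TRB, Zbtb18 in 2 of 25 and Pigx in 1 of 5. By this reading 8 of 9 genes had the higher share with the TRA in TRA-only cells, with Gemin6 the exception, and 8 of 9 in cells with another TRB, with Jaml the exception. Over all 7777 genes with at least 100 UMIs, the same splits gave the higher share with the TRA in 13.0 to 55.3% of genes in TRA-only cells and in 26.2 to 68.5% in cells with another TRB. The count in TRA-only cells includes Pigx and Zbtb18 from 1 cell each and Smg6, whose shares were nearly equal. It draws on the same 460 cells as the planned reading. For Gpm6b, Pigx and Gemin6 the cells with the TRA had the same counts in both readings, so the readings are not independent.

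**Figure D3:**
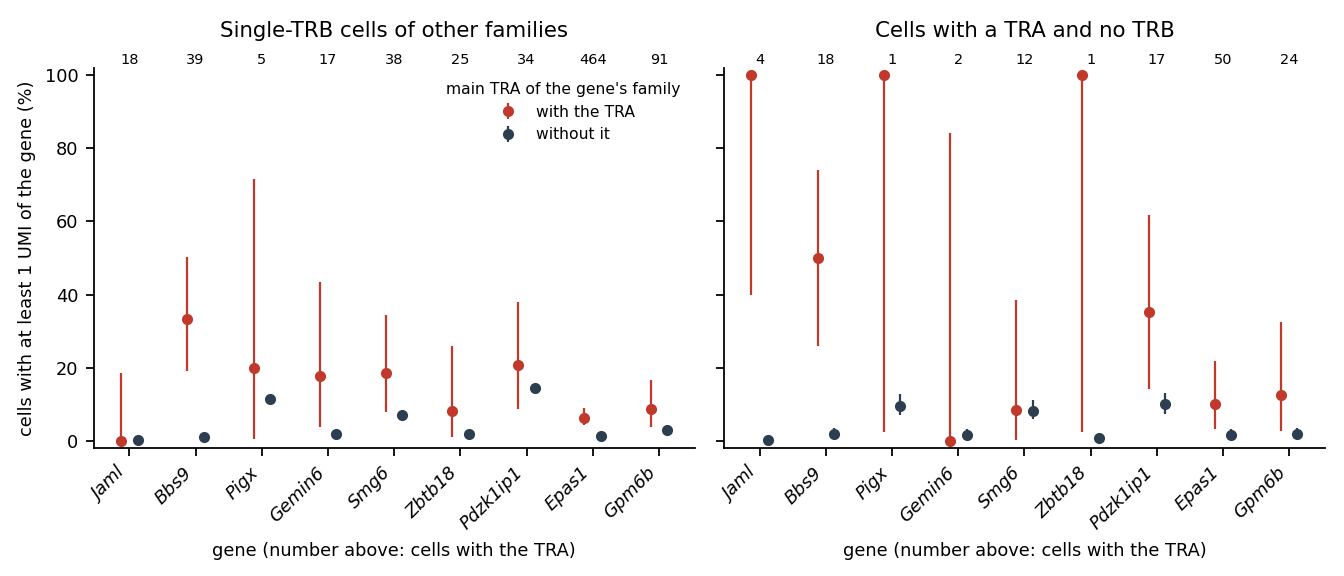
Share of cells positive for each gene among cells with and without the main TRA of the gene's family, in single-TRB cells of other families (left) and in cells with a TRA and no TRB (right). Points are shares in percent, bars exact 95% binomial intervals, and the numbers above count the cells with the TRA. Bbs9 stands apart in both panels, at 33.3% and 50% with the TRA, while Jaml is at 0 of 18 on the left and 4 of 4 on the right.

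The RNA library itself gave a second readout in the 5752 cells without TCR barcode, through transcripts of the TRB V segments. Among cells with any TRBV UMI, the V segment of the gene's family was found more often in cells positive for the gene in 8 of 9 cases. The same was so for 41.5 to 65.3% of 7775 genes, depending on the family. The positive cells were deeper for all 9 genes, with medians of 2153 to 2684 UMIs against 1761 to 1825, and the part of depth was not tested. For Jaml, TRBV13-3 was in 4 of 7 positive cells (57.1%, 18.4 to 90.1%) and 52 of 1165 negative ones (4.46%). For Pigx, TRBV17 was in 39 of 167 (23.4%, 17.2 to 30.5%) and 70 of 1005 (6.97%). For Gpm6b, TRBV12-2 or TRBV13-2 was in 37 of 66 (56.1%, 43.3 to 68.3%) and 380 of 1106 (34.4%). For Pdzk1ip1, TRBV12-1 was in 33 of 194 (17.0%, 12.0 to 23.1%) and 78 of 978 (7.98%).

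Counts were smaller for Bbs9, with TRBV19 in 4 of 27 (14.8%) and 34 of 1145 (2.97%), and for Gemin6, with TRBV13-3 in 6 of 49 (12.2%) and 50 of 1123 (4.45%). For Zbtb18 and Epas1 the V segment was in 2 of 30 (6.67%) and 2 of 24 (8.33%) positive cells, against 1.84% and 6.36% of negative ones, and the intervals reach over both values. Smg6 went the other way, with TRBV15 in 17 of 122 positive cells (13.9%, 8.33 to 21.4%) and 170 of 1050 negative ones (16.2%). TRBV15 is also the V segment of the largest family, so it does not single out the Smg6 family. The same limit holds for other genes. TRBV17 is also the V segment of TRBV17-TRBJ1-1, with 200 cells, and TRBV13-3 is that of the Jaml, Gemin6 and further families. TRBV14 and TRBV12-2 also recur among the 19 families. Every V segment here was found with at least 15 other CDR3 sequences. Within the families themselves the matching V segment was found in 14.3 to 85.4% of cells with any TRBV UMI, which bounds what this readout can show.

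**Figure D4:**
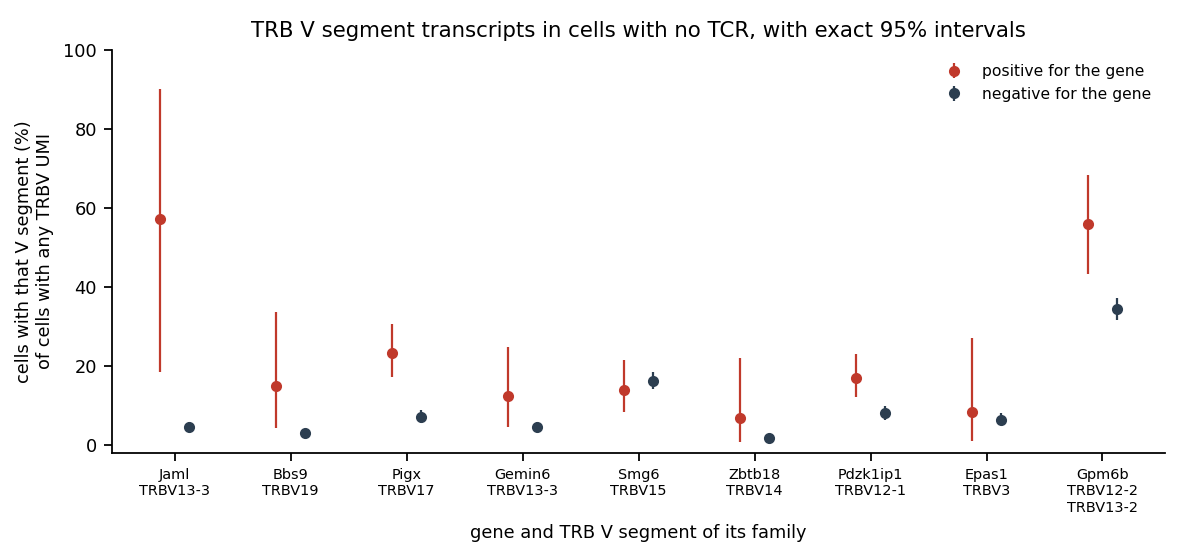
Cells with no TCR barcode and any TRBV UMI, split by whether they hold the gene: percent of them with the V segment of the gene's family, with exact 95% intervals. Jaml (57.1% against 4.46%), Pigx and Gpm6b show the widest gaps, and Smg6 is lower in positive cells.

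The beta constant genes were read in the same cells. TRBJ1 segments lie next to Trbc1 and TRBJ2 segments next to Trbc2. In the TRBJ1 families Trbc1 made up 71.6% of Trbc UMIs for Jaml, 77.7% for Zbtb18 and 55.7% for Bbs9. In the TRBJ2 families it ran from 7.20% for Gemin6 to 22.7% for Epas1. In cells without TCR barcode Trbc1 was 62.6% of Trbc UMIs in Jaml-positive cells and 39.5% in negative ones. Among genes of TRBJ2 families it was lower in positive cells for Gemin6 (25.9% against 40.2%) and Gpm6b (26.0% against 40.4%). It was also lower for Pigx (31.9% against 41.3%) and Smg6 (35.2% against 40.1%). Pdzk1ip1 was at 38.0% against 40.0%, and Epas1 went the other way, at 40.7% against 39.6%. For the other genes of TRBJ1 families Trbc1 was higher in positive cells, at 48.7% against 39.4% for Bbs9 and 42.4% against 39.5% for Zbtb18. The share of all genes that differ in these directions was not read, and the positive cells were deeper.

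Each family had further leading genes, and some of them were higher with the member in cells without TCR barcode. The share of all genes with such a ratio in the same splits was not read. The positive cells were deeper, and the intervals do not cover UMIs gathered in few cells. In the Bbs9 family the next were Pdia5, a disulfide isomerase of the endoplasmic reticulum, at 17.6-fold (219 against 12.4 CPM), Gm44756 at 15.3-fold, Gm14275 at 12.8-fold and Wnt10a, a secreted Wnt ligand, at 8.72-fold. In the cells without TCR, Pdia5 was at 134 CPM in Bbs9-positive and 11.7 CPM in Bbs9-negative cells, a ratio of 11.5 (8.12 to 16.0). Gm14275 had a ratio of 4.46 (2.84 to 6.75), Wnt10a of 2.92 (1.87 to 4.37) and Gm44756 of 1.78 (0.840 to 3.36). The interval of Gm44756 reached 1 and the other 3 did not.

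In the Gemin6 family Tyms, the thymidylate synthase, was at 179 against 18.6 CPM, 9.64-fold, followed by Gm42047, the protease gene Prss12 and Ly6k. In cells without TCR the ratios with Gemin6 were 3.49 (2.39 to 4.97) for Tyms, 4.14 (2.84 to 5.90) for Gm42047, 2.18 (1.70 to 2.77) for Prss12 and 1.68 (1.07 to 2.52) for Ly6k. In the Pigx family Dnmt1, the maintenance DNA methyltransferase, was at 467 against 73.0 CPM, 6.39-fold, and had a ratio of 1.83 (1.58 to 2.10) in Pigx-positive cells without TCR. The serpin Serpina3f had 1.80 (1.14 to 2.78), while Gm12216 and Insl6 had intervals that reach 1. The ratio of Crisp3 with Zbtb18 was 3.88 (2.52 to 5.75), from 28 UMIs in 7.19% of 139 positive cells. Izumo1r, the folate receptor family gene also called FR4, had 2.14 (1.53 to 2.98) with Pdzk1ip1, and Rcn3 with Gpm6b had 2.44 (1.5 to 3.81).

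For other leading genes the intervals in those cells reached 1. None of the 5 leading genes beside Jaml, which were Zfp141, Hexa, Ddx19b, Mrs2 and Naf1 at 5.41-fold to 7.43-fold from 6 to 9 UMIs each, had more than 1 UMI in the 34 Jaml-positive cells without TCR. Bcl9l, Mras, Srek1ip1 and Grap, which follow Smg6 in its family, had ratios of 0.656 to 1.16 in Smg6-positive cells, all with intervals that reach 1. The same held for Itgb5, Dnm3, Gsn and Snx25 beside Epas1, at 1.09 to 1.92. Cd79b, a B cell receptor subunit, was second in the Zbtb18 family at 62.9 against 10.3 CPM, 6.13-fold (3.22 to 10.8). Cd79a, Ms4a1 and Pax5 were at 0 there, and the summed B cell list was at 360 CPM in the family, the highest of the 19, around a median of 201. Of the 80 UMIs of that sum 40 were Ighd, and the NK cell list was also highest there, at 26.97 CPM from 6 UMIs. Cd79b had a ratio of 0.729 (0.197 to 1.90) in Zbtb18-positive cells without TCR. The part of these transcripts in the level of Zbtb18 was not tested.

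Among genes with at least 100 UMIs, none of a member's complex or pathway list was 2-fold higher in its family. Over all 7777 genes, 61 in the Gpm6b family to 640 in the Epas1 family were 2-fold higher. With at most 15 genes read per list, a count of 0 says little about the pathways. Among list genes below the minimum of 100 UMIs, 4 were past 2-fold from 1 to 3 UMIs each, with intervals that reach 1. These were the chaperonin-like Bbs12 (3.09, 0.623 to 9.37) and Mkks (2.01, 0.239 to 7.49) and the BBSome regulator Lztfl1 (2.83, 0.572 to 8.56) in the Bbs9 family, and Bnip3 (2.71, 0.0671 to 16.0) in the Epas1 family. Each list is described by the number of genes with at least 100 UMIs that were 2-fold higher or lower, and their median ratio beside that of all 7777 genes. For GPI synthesis, 15 genes could be read in the Pigx family, 0 were 2-fold higher and 1 lower, with a median of 0.95 against 0.98, while 14.5% of all genes were past 2-fold either way. Pigm, the catalytic partner of Pigx, was at 19.2 against 14.6 CPM from 4 UMIs. For the SMN complex 6 genes could be read in the Gemin6 family and none was past 2-fold (median 1.09 against 0.98, 12.4% of all genes), with Gemin7, which binds Gemin6 directly, at 129 against 113 CPM. For nonsense-mediated decay 15 genes could be read in the Smg6 family, 0 were higher and 1 was lower (median 0.84 against 0.93, 11.3% of all genes). That gene was Upf3a, at 9.50 against 40.2 CPM from 3 UMIs, while Smg5 was at 0.82.

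Of the ZBTB factors 15 could be read in the Zbtb18 family and none was past 2-fold (median 0.85 against 0.93, 15.3% of all genes). Of the PDZK1 and NHERF scaffolds 4 could be read in the Pdzk1ip1 family and none was (median 1.19 against 0.95, 17.5% of all genes). Pdzk1 itself was not among the 4. In the hypoxia pathway 11 genes could be read in the Epas1 family, with 0 higher and 1, the glucose transporter Slc2a1, lower at 0 UMIs (median 0.73 against 0.92, 29.9% of all genes). Hif1a was at 78.4 against 122 CPM, and Ldha at 431 against 320 CPM. For the BBSome only Bbip1 could be read in the Bbs9 family, at 91.2 against 83.3 CPM, where 26.1% of all genes were past 2-fold. For Jaml, the ligand Cxadr and its relatives had no UMI in the family, where 28.8% of genes were past 2-fold. In the other single-TRB cells they summed to only 1.03 CPM. The interval of the ratio ran from 0 to 49.3, so their absence from the family cannot be read. No list gene could be read in the Gpm6b family, where 4.1% of genes were past 2-fold. The shares of all genes past 2-fold were larger in the smaller families, where few UMIs stand behind each gene.

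Most of the nearest annotated genes of the members stood within 2-fold of the other cells, as did most genes in these families. Over all 7777 genes 4.1 to 29.9% were past 2-fold, depending on the family. Of the 3 annotated genes on each side of each member, 28 had at least 100 UMIs. Their distances ran from 0 bases, for Ofd1 at Gpm6b, to 2219843 bases, for Herpud2 at Bbs9. Beside Jaml, Cd3e and Cd3d, which encode chains of the TCR complex, had ratios of 1.00 (0.839 to 1.18) and 1.04 (0.844 to 1.26) in the Jaml family. Gm10684, which lies within the span of Jaml, had 2 of its 3 UMIs in that family. Srsf7, 135 bases from Gemin6, was at 1.15 (0.865 to 1.49), and Dhx57, 9807 bases away on the other side, at 2.78 (1.36 to 5.13) from 11 UMIs. Cep19, 62 bases from Pigx, was at 1.54 (0.610 to 3.23) and Pak2 at 0.93 (0.659 to 1.29). Past 2-fold were also Dpy19l1, 1523495 bases from Bbs9, at 2.51 from 5 UMIs and Fbxo45 on the side of Pigx at 2.13 from 5 UMIs. Hnrnpll on the side of Gemin6 was lower, at 0.38 from 2 UMIs. The intervals of these 3 reach 1. Srr, Gm12335, Hic1 and Rps12-ps19 lie at 0 bases from Smg6. Reads of overlapping genes cannot be told apart where the counting did not use strand, and neither labels nor files say whether it did.

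**Figure D5:**
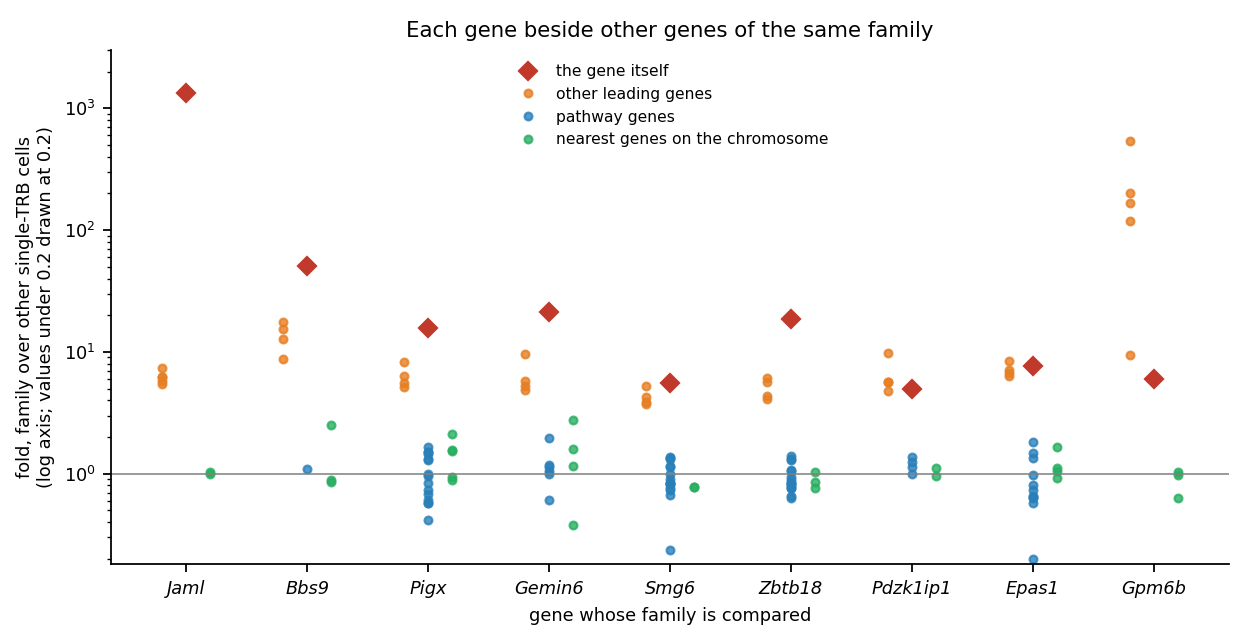
Ratio of family to other single-TRB cells (log axis) for each member (diamond), the other leading genes of its family, the genes of its pathway list and its nearest genes on the chromosome, with at least 100 UMIs each; values under 0.2 are drawn at 0.2. Pathway genes and neighbours lie around 1, below the member in every family. The 4 high points beside Gpm6b are the haemoglobin genes of 1 cell.

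Summed levels of T cell state lists in the families of the 9 genes are given as a description, and no test was run. The effector list had a summed ratio to the other single-TRB cells below 1 in 8 of the 9 families, as in 14 of all 19. The ratios were 0.46 in the Zbtb18 family, 0.53 in that of Pdzk1ip1, 0.54 for Bbs9 and 0.56 for both Gemin6 and Smg6. They were 0.57 for Jaml, 0.62 for Gpm6b and 0.99 for Pigx. The list was higher in the Epas1 family, at 1.55 (1.43 to 1.69). The largest family, TRBV15-TRBJ1-1, is in the pool of other cells for all 9 and summed to 5963 CPM. Memory and stemness genes summed to 1.32 times in the Gemin6 family (1.26 to 1.38) and 1.28 in the Gpm6b family (1.25 to 1.30), and to 0.87 in the Epas1 family. Among the 9 families, interferon response genes were highest in the Gpm6b and Pigx families, at 1.61 (1.52 to 1.70) and 1.53 (1.33 to 1.75), and lowest in the Epas1 and Zbtb18 families, at 0.51 and 0.54. CD8 T cell identity genes lay between 0.77 and 1.13 in all 9. NK cell genes had no UMI in 5 of the 9 families and neutrophil genes none in any.

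Lists of other cell types were also uneven. The endothelial and stromal list, 4 of whose 9 genes were in the matrix, summed to 484 CPM in the Epas1 family, 2.05 times the other single-TRB cells (1.44 to 2.83) and the highest of the 19. This sum was Pecam1 at 275 CPM and Flt1 at 209 CPM, with Cdh5 and Col1a1 at 0. In the Gemin6 family the sum was 371 CPM, 1.58 times (1.26 to 1.95), with Flt1 at 133 against 45.8 CPM and again Cdh5 and Col1a1 at 0.

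The monocyte, macrophage and dendritic cell list, with 6 of 10 genes in the matrix, was highest in the Jaml and Epas1 families. It summed to 268 CPM in the Jaml family, 1.81 times (1.15 to 2.70), from 20 UMIs of Cst3 and 4 of Cd68, with Lyz2, Csf1r, Itgam and C1qa at 0. In the Epas1 family it summed to 261 CPM, 1.76 times (1.07 to 2.73), from 17 UMIs of Cst3 and 3 of Itgam, with Lyz2, Csf1r, Cd68 and C1qa at 0. The part of these cell types in the levels of Jaml, Gemin6 and Epas1 was not tested.

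Likeness across the 19 families named further genes. The closest to Gemin6 included Tyms (0.67) after Ankle2 (0.71), and to Pigx Dnmt1 (0.68) after Gpr108 (0.68), the same genes that led these families. For Jaml the closest were Aggf1 (0.72), Hp1bp3 (0.71) and Papd5 (0.68), for Bbs9 Mapkap1 (0.71), Kmt5a (0.71) and Cox17 (0.69), and for Smg6 Tex10 (0.74), Bbx (0.74) and Herc2 (0.67). None of these 9 genes exceeded 5-fold in the family concerned. All are Pearson coefficients of log2(CPM + 10) over 19 families of 1 library, the highest of 5805 genes, and for genes such as Jaml they rest on 1 family.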

How the data were processed

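The deposited RNA matrix holds the authors' raw counts of UMIs for every gene and cell barcode. Per the file headers, the deposited contig table gives each TCR contig its barcode, segments, CDR3 and UMI count. Per the submitters' processing notes, the build is GRCm38 and the tools include STAR 2.6.1a, featureCounts 2.0.1 and cutadapt 1.17, with no role or order. No source names the V(D)J assembler. The members and gene lists were chosen with earlier results of these data known.

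A cell passed with 200 or more genes and a mitochondrial share below 20%, and the libraries were joined on the barcode. Counts were summed over cells and divided by all their UMIs (CPM). Doublets were neither called nor removed. Sums have exact Poisson, ratios exact conditional and shares exact Clopper-Pearson intervals at 95%. Where a group had 0 counts, 3 counts served as its upper limit. A single library of each kind allows no test between groups, and none was run. The ratio and its interval were tested on simulated Poisson counts, the model that the interval assumes. UMIs gathered in few cells were not simulated, so the test does not cover them.

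Genes were named by rule: the 9 members, their lists, the 5 genes of largest ratio in each member's family with at least 100 UMIs (TCR segments left out), the 3 most alike over families with at least 200 UMIs and the 3 nearest on each side. Alternatives changed the definition of a family, the cell filter, the pool of other cells, the depth (1000 UMIs) and the minimums. Gene positions are from RefSeq. Tools were Python 3.11.15, numpy 2.4.6, scipy 1.17.1 and pandas 2.3.3.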

Additional observations from a re-analysis of the deposited data

How the results depend on the processing

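The number of members at least 5-fold higher in their family was 8, and 7 to 9 under the other definitions of a family, cell filters, depths and pools of other cells; at least 2-fold it was 9 and at least 10-fold it was 5. The changes came from Epas1 (4.33-fold at 1000 UMIs per cell), Gpm6b (4.38-fold with families joined by cells with both TRBs) and Pdzk1ip1 (5.37-fold in cells with exactly 1 TRA and 1 TRB, 5.07-fold in its largest clonotype). With other families weighted equally the ratio was 33.2 for Gemin6 and 10736 for Jaml, against 1339 as reported. At 1000 UMIs per cell it was 2468 for Jaml and 85.3 for Bbs9. The number of members with the higher share in cells assigned by TRA was 3, from few cells and with no share of all genes beside it. It was 0 when at least 95% of a TRA's cells had to be in the family, and 8 by the main TRA, both in TRA-only cells and in cells with another TRB. The joined families and the main TRA were chosen after seeing the data. Of 90 ratios under the alternatives 86 stayed within their interval, and of 90 shares 80 did, most of the others being shares at 1000 UMIs. All 9 members kept their highest family when families of 20 or more cells were read. No value reversed. No paired analysis was possible because there is 1 RNA library and no second group. Depth limits Jaml most, with 59 UMIs over all single-TRB cells, and Bbs9, Zbtb18 and Epas1 have 108, 111 and 112.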
